A study of Homo sapiens with 6 samples.

Results

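The AP-1 and EGR immediate early factors are 10 human genes: FOS, FOSB, FOSL1, FOSL2, JUN, JUNB, JUND, ATF3, EGR1 and EGR3. They were taken by gene symbol from the array annotation, which gave them 18 of the 22215 probe sets tested, and each gene, here and among all 11963 genes named, is represented by its brightest probe set on average. The rule that picks their probe sets uses no difference between groups, but the genes were proposed with earlier results of these data known. They were measured in A549, an established line of human lung adenocarcinoma cells, on 6 Affymetrix arrays in 3 groups of 2. In the PIAS3 group cells were transfected with a pCMV5 plasmid for human PIAS3, a SUMO ligase known to inhibit STAT3. In the STAT3 siRNA group they were transfected with an siRNA against that transcription factor. The EGF control group was stimulated with EGF and left untransfected, so transfection itself and the agent transfected cannot be told apart in either comparison with control. Per the growth protocol, cells of all groups were seeded for 12 h in medium with 10% fetal bovine serum. According to the design text every group was kept without serum and given EGF before transfection, although only the control titles mention EGF. Transfected cells were harvested 48 h post-transfection. That time does not apply to the untransfected controls, and no interval between EGF and harvest is stated for any group. A difference in this interval could not be told apart from transfection in either comparison with control. Nothing in the labels shows that arrays of a group are separate cultures, so the p-values may reflect technical spread only.

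Immediate early genes are transcribed within minutes of a growth factor or stress signal, from factors already present in the cell. EGF acts on many of them through the ERK kinases and serum response factor (SRF), and the transcripts are usually short-lived. FOS proteins (FOS, FOSB, FOSL1, FOSL2) pair with JUN proteins (JUN, JUNB, JUND) through a leucine zipper to form AP-1, which binds DNA at TGANTCA. ATF3 belongs to the same basic leucine zipper class, is induced by stress and often acts as a repressor. EGR1 and EGR3 are zinc finger factors that bind GC-rich sites. In lung epithelial tumours AP-1 is known for its part in growth, invasion and the response to EGF receptor signalling.

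Promoter sequence is shown for EGR1, JUN and FOS as examples. They read lower than control in both siRNA arrays and in PIAS3 replicate 2, as did FOSB, FOSL1, ATF3, EGR3 and, by its brightest probe set only, JUND. The pattern is therefore not particular to the genes shown. Each line gives the 150 bases that end just before the RefSeq start of transcription on the GRCh38.p14 build, read 5′ to 3′ on the gene's strand. Capitals mark matches to the motifs searched. EGR1 lies on the plus strand at chr5:138465329-138465478, JUN on the minus strand at chr1:58784048-58784197, and FOS on the plus strand at chr14:75278678-75278827.
EGR1: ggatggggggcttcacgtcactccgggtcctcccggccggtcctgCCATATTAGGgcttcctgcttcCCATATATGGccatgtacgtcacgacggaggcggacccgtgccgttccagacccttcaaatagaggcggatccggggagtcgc
JUN: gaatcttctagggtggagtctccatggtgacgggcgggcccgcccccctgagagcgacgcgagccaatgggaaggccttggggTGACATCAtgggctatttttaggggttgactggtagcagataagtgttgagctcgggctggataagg
FOS: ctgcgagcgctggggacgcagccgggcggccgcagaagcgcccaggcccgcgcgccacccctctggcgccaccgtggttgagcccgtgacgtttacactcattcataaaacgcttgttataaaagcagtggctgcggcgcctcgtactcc

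The motifs were searched on both strands in the 250 bases before each start: the AP-1 site TGANTCA, the cyclic AMP element TGACGTCA, its variant TGACATCA, the STAT site TTCNNNGAA, the EGR site GCGNGGGCG and the CArG box bound by SRF. EGR1 held 2 CArG boxes, a motif found in 1.16% of 35116 promoters searched the same way. These were at 105 to 96 and 83 to 74 bases before its start. It also held an EGR site at 198 to 190 bases, found in 8.41% of promoters, and a STAT site at 228 to 220 bases, found in 6.57%. JUN held TGACATCA at 67 to 60 bases before its start (2.37% of promoters), a site known to bind JUN and ATF2 dimers. JUND held TGACGTCA at 200 to 193 bases (1.65% of promoters). TGANTCA, present in 6.57% of promoters, was in no window searched. FOSL1 and EGR3 had no window searched, so the search does not cover them. FOS, FOSB, FOSL2 and JUNB held none of these motifs in the window, and the known serum response element of FOS lies farther upstream. ATF3 has 2 starts in the table, of which 1 held TGACATCA at 123 to 116 bases, and the array does not tell which start was used. A match describes the sequence and shows no binding.

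The arrays were compared before the genes. Over all named genes, PIAS3 replicate 1 stood farthest from the controls, with a root mean square difference of 0.45 from control replicate 1 and 0.46 from control replicate 2 on the log2 scale. In that array 6 interferon-stimulated genes (MX1, IFIT1, IFIT3, ISG15, OAS1 and IFI44) had a median of 5.07 above the control mean and the poly-A spike-ins a median of 1.38 above it. In the other transfected arrays these medians lay between -0.05 and 0.10 and between -0.37 and -0.13. The actin 3′ probe set exceeded the 5′ probe set by 0.43 and 0.28 in the PIAS3 arrays and by 0.16 and 0.23 in the siRNA arrays, against 0.12 and 0.10 in the controls. The part of these array properties in the results was not tested, so values are given for each array. STAT3 differed from control by -0.53 ± 0.18 (SE, n = 2 per group) in the PIAS3 arrays and -0.38 ± 0.18 in the siRNA arrays, and PIAS3 by 0.04 ± 0.11 and -0.13 ± 0.11, with limma adjusted p-values of 0.254, 0.9998, 0.919 and 0.9998. The second STAT3 probe set gave -0.60 ± 0.15 in the PIAS3 arrays and -0.33 ± 0.15 in the siRNA arrays. By both probe sets STAT3 was lower on average in the PIAS3 arrays, so its level does not set the siRNA group apart. Whether the PIAS3 probe set can detect the plasmid transcript is unknown here, so it does not check the PIAS3 label. The array medians over all probe sets were 6.63 to 6.72. Of 6 epithelial markers, 5 read above the array median in every array (KRT7, KRT8, KRT18, KRT19 and CDH1). EPCAM, the other, read 6.36 and 6.78 in the PIAS3 arrays, 7.12 and 6.04 in the siRNA arrays, and 7.24 and 7.22 in the controls. The TrpnX control probe sets, which detect a transcript absent from human cells, read 3.26 to 3.93. Near or below them were the leukocyte markers PTPRC (3.85 to 3.95) and LYZ (3.39 to 3.52) and the fibroblast marker LUM (2.98 to 3.13). Other markers of those cells read higher, with the fibroblast marker COL1A1 at 8.58 to 8.88 and the T cell marker CD3E at 6.63 to 7.09. The monocyte marker CD14 read 6.84 and 6.54 in the PIAS3 arrays, 5.90 and 5.99 in the siRNA arrays, and 5.87 and 5.83 in the controls, and its part in the results was not tested. The mean level of leukocyte markers was 5.25 to 5.40 in the PIAS3 arrays, 5.13 to 5.22 in the siRNA arrays and 5.12 to 5.14 in the controls. For fibroblast markers it was 5.52 to 5.70, 5.60 to 5.69 and 5.61 to 5.62, and for endothelial markers 5.002 to 5.06, 5.02 to 5.03 and 4.98 to 5.05, in the same order. The basal markers KRT5 (6.11 to 6.42) and KRT14 (4.21 to 4.62) were below the array median. So were the alveolar markers NKX2-1 (5.60 to 6.02) and LAMP3 (4.16 to 6.42, highest in PIAS3 replicate 1). The alveolar markers SFTPC (7.41 to 7.71), SFTPB (7.07 to 7.20) and ABCA3 (8.14 to 8.62) were above that median. Against the median over named genes, 2 of the 5 alveolar markers measured were above in every array.

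**Figure D1:**
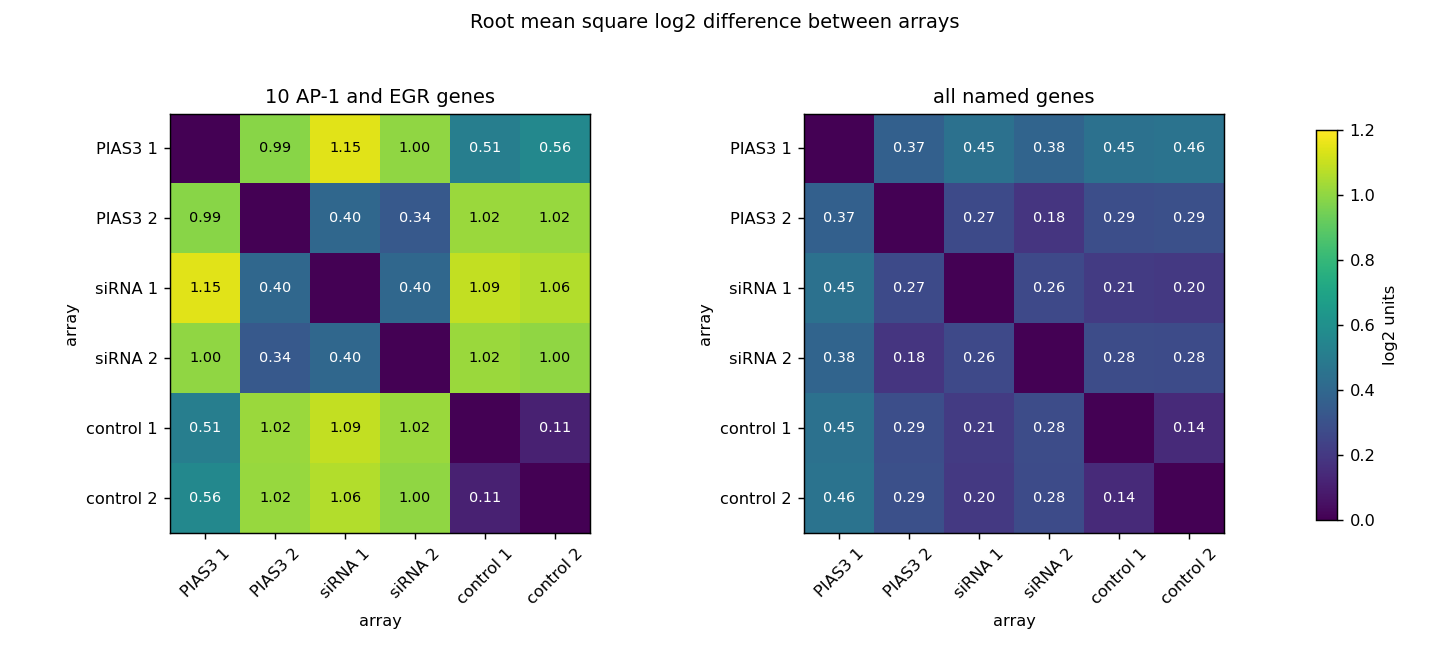
Root mean square log2 difference between each pair of arrays, over the 10 AP-1 and EGR genes (left) and over all 11963 named genes (right), in log2 units. Over the 10 genes, PIAS3 replicate 2 and both siRNA arrays lie 0.34 to 0.40 apart and 1.002 to 1.09 from the controls, while PIAS3 replicate 1 lies 0.51 and 0.56 from the controls.

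Over the 10 genes PIAS3 replicate 2 differed by 0.34 from siRNA replicate 2 and by 0.40 from siRNA replicate 1, and by 1.02 from each control. PIAS3 replicate 1 differed by 0.99 from PIAS3 replicate 2, and by 0.51 and 0.56 from the controls, although over all genes it was the array farthest from both. The siRNA replicate 1 array differed from the controls by 0.21 and 0.20 over all genes, its smallest differences there, and by 1.09 and 1.06 over the 10 genes. The controls differed from each other by 0.11 over the 10 genes and 0.14 over all genes. These distances describe 10 genes on 6 arrays and were not tested. The plot of distances between arrays shows both patterns side by side.

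None of the 10 genes passed an adjusted p of 0.05 in any of the 3 comparisons (limma, Benjamini-Hochberg over 22215 probe sets), where 0.125% of all genes (0.0990% of probe sets) passed for PIAS3 against control, 0.00836% (0.00450% of probe sets) for the siRNA against control and 0% for PIAS3 against the siRNA. At an unadjusted p under 0.05, 1 member was higher and 4 lower for PIAS3 against control, where 7.13% of all genes were higher and 7.44% lower. For the siRNA against control 1 was higher and 5 lower, where 2.32% and 3.06% of all genes were. For PIAS3 against the siRNA 2 were higher and 1 lower, where 4.19% and 3.83% of all genes were. For the siRNA against control, both arrays lay below both controls for 8 members, where 19.5% of all genes did, and above them for 1, where 19.4% did. For PIAS3 against control, both arrays lay below both controls for 5 members (23.7% of all genes) and above for 1 (22.4% of all genes). The median log2 difference over the 10 genes was -0.73 for the siRNA and -0.32 for PIAS3, beside -0.00 over all genes in each. The 2 comparisons share their control arrays.

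**Figure D2:**
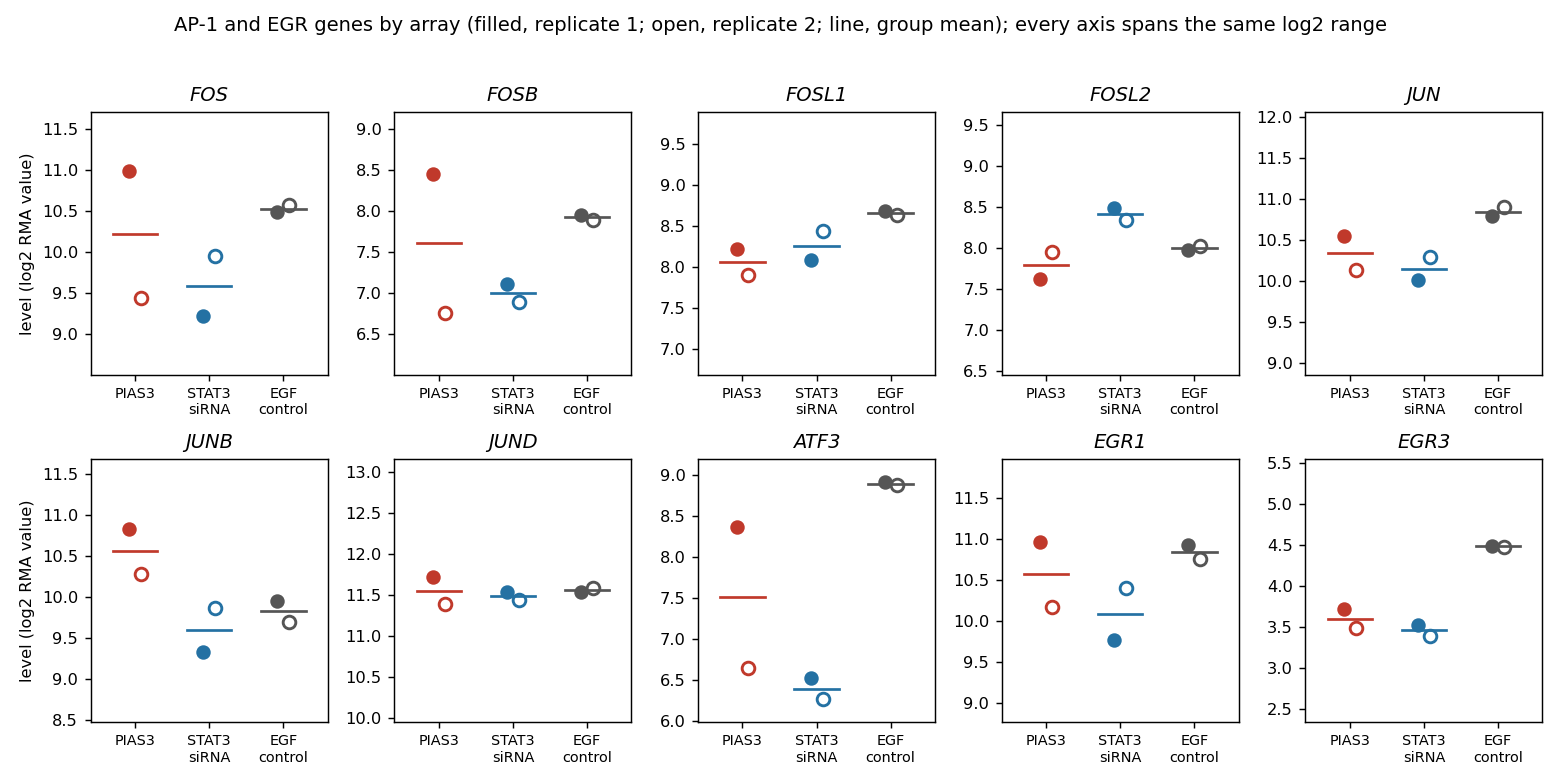
Level of each gene (log2 RMA value, y axis) in the PIAS3, STAT3 siRNA and EGF control arrays. Filled points are replicate 1, open points replicate 2 and lines group means, and ATF3 reads 8.37 and 6.65 in PIAS3, 6.53 and 6.27 in siRNA, and 8.92 and 8.88 in control arrays.

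ATF3, the stress-induced factor, had the widest range of the 10 genes, 2.65 log2 units over the 6 arrays. Its level was 8.37 and 6.65 in the PIAS3 arrays, 6.53 and 6.27 in the siRNA arrays, and 8.92 and 8.88 in the controls. Both siRNA arrays and PIAS3 replicate 2 were far below the controls, and PIAS3 replicate 1 was lower by 0.53 than their mean. With the siRNA the log2 difference was -2.50 ± 0.47 (SE of 2 arrays a group), a 5.66-fold lower level, at a limma adjusted p of 0.442. The siRNA result passed at the same difference in a fit of the siRNA and control arrays alone, where the spread between the PIAS3 arrays does not enter (-2.50 ± 0.12, adjusted p = 0.00536). With PIAS3 the difference was -1.39 ± 0.47 (adjusted p = 0.254, and 0.323 in the fit of the PIAS3 and control arrays alone). It was -2.25 without PIAS3 replicate 1 and -0.53 without PIAS3 replicate 2. Each of these fits rests on 1 PIAS3 array whose spread was taken from the other groups. The array measures RNA of a whole culture, so fewer cells with the transcript and less transcript per cell cannot be told apart.

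Among the FOS genes, FOS itself, the founding partner of JUN in AP-1, read 10.999 and 9.44 in the PIAS3 arrays, 9.22 and 9.96 in the siRNA arrays, and 10.49 and 10.58 in the controls. Its siRNA arrays did not overlap the controls, whereas the PIAS3 arrays lay on either side of them. FOSB, its close paralogue, read 8.45 and 6.77 in the PIAS3 arrays, 7.11 and 6.90 in the siRNA arrays, and 7.96 and 7.89 in the controls. It showed the same arrangement, with PIAS3 replicate 1 above the controls and the other 3 transfected arrays below them. The difference from control with the siRNA was -0.94 ± 0.46 for FOS and -0.92 ± 0.46 for FOSB (limma adjusted p = 0.9998 for each). With PIAS3 it was -0.31 ± 0.46 and -0.32 ± 0.46 (adjusted p of 0.846 and 0.842). These errors pool the spread of all 3 groups. For the siRNA and control arrays fitted alone they were 0.23 for FOS and 0.11 for FOSB (limma adjusted p of 0.439 and 0.135). The sign of the PIAS3 differences from control depended on the array. Without PIAS3 replicate 2 they were 0.47 for FOS and 0.53 for FOSB, and without PIAS3 replicate 1 they were -1.09 and -1.16, and none of these passed.

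FOSL1 and FOSL2 encode FOS relatives that lack a strong activation domain. FOSL1 read 8.21 and 7.90 in the PIAS3 arrays, 8.08 and 8.44 in the siRNA arrays, and 8.67 and 8.63 in the controls. All 4 transfected arrays were below both controls. Its difference was -0.60 ± 0.16 with PIAS3 (limma adjusted p = 0.177) and -0.39 ± 0.16 with the siRNA (adjusted p = 0.9998). FOSL2 read 7.62 and 7.95 in the PIAS3 arrays, 8.48 and 8.34 in the siRNA arrays, and 7.97 and 8.02 in the controls. It was the only member whose siRNA arrays both lay above both controls, by 0.42 ± 0.14 (adjusted p = 0.949), and its PIAS3 arrays lay just below the controls (-0.21 ± 0.14, adjusted p = 0.580). That siRNA difference rests on the brightest probe set. The other FOSL2 probe sets gave -0.06 ± 0.11 and -0.05 ± 0.12 with the siRNA, so the probe sets disagree.

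JUN, the activating partner of FOS, read 10.55 and 10.14 in the PIAS3 arrays, 10.01 and 10.28 in the siRNA arrays, and 10.78 and 10.90 in the controls. The 4 transfected arrays were below both controls, the PIAS3 group by 0.50 ± 0.17 (limma adjusted p = 0.251) and the siRNA group by 0.70 ± 0.17 (adjusted p = 0.678) in mean. The other 3 JUN probe sets gave -1.26 ± 0.25, -0.56 ± 0.18 and -0.72 ± 0.24 with the siRNA, the same direction as the brightest. With PIAS3 they gave -0.55 ± 0.25, -0.81 ± 0.18 and -0.07 ± 0.24, and none of these 6 differences passed. JUN was thus lower in both siRNA arrays by every probe set.

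JUNB, a JUN relative that restrains JUN in some settings, read 10.83 and 10.28 in the PIAS3 arrays, 9.32 and 9.87 in the siRNA arrays, and 9.95 and 9.70 in the controls. JUNB was the only member with both PIAS3 arrays above both controls, by 0.73 ± 0.24 (limma adjusted p = 0.239), a 1.66-fold higher level. Its siRNA replicate 1 was below both controls and replicate 2 between them (-0.23 ± 0.24, adjusted p = 0.9998). JUND, the JUN gene that growth factors change least, read 11.71 and 11.40 in the PIAS3 arrays, 11.54 and 11.43 in the siRNA arrays, and 11.54 and 11.58 in the controls. Its difference was -0.01 ± 0.13 with PIAS3 (95% interval -0.32 to 0.31) and -0.07 ± 0.13 with the siRNA (-0.39 to 0.24). The other JUND probe sets gave -0.18 ± 0.12 and 0.0008 ± 0.12 with the siRNA, and by both the siRNA arrays overlapped the controls. JUND therefore counts as below control by its brightest probe set only. The range of JUND over the 6 arrays, 0.32 log2 units, was the smallest of the 10 genes.

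EGR1, the zinc finger factor whose promoter carries the CArG boxes shown above, read 10.97 and 10.17 in the PIAS3 arrays, 9.78 and 10.40 in the siRNA arrays, and 10.92 and 10.76 in the controls. The siRNA arrays were below both controls, and PIAS3 replicate 1 was just above them. The difference was -0.76 ± 0.29 with the siRNA (limma adjusted p = 0.9998) and -0.27 ± 0.29 with PIAS3 (adjusted p = 0.760). The PIAS3 value was 0.13 without PIAS3 replicate 2. The second EGR1 probe set read -0.80 ± 0.25 with the siRNA and -0.46 ± 0.25 with PIAS3, again without passing. By that probe set PIAS3 replicate 1 (8.15) lay just below both controls (8.16 and 8.31), so the probe sets disagree on that array. EGR3, an EGR family member induced by the same pathway, read 3.72 and 3.49 in the PIAS3 arrays, 3.53 and 3.40 in the siRNA arrays, and 4.50 and 4.48 in the controls. All 4 transfected arrays were below both controls and within the range of the TrpnX probe sets (3.26 to 3.93), so its level there is only an upper bound. Its measured difference was -0.88 ± 0.12 with PIAS3 (adjusted p = 0.0670) and -1.02 ± 0.12 with the siRNA (adjusted p = 0.238). The PIAS3 result passed in the fit of the PIAS3 and control arrays alone (adjusted p = 0.0432). That fit passed 262 probe sets, against 22 in the reported fit. The siRNA result did not pass in the fit of the siRNA and control arrays alone (adjusted p = 0.115).

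**Figure D3:**
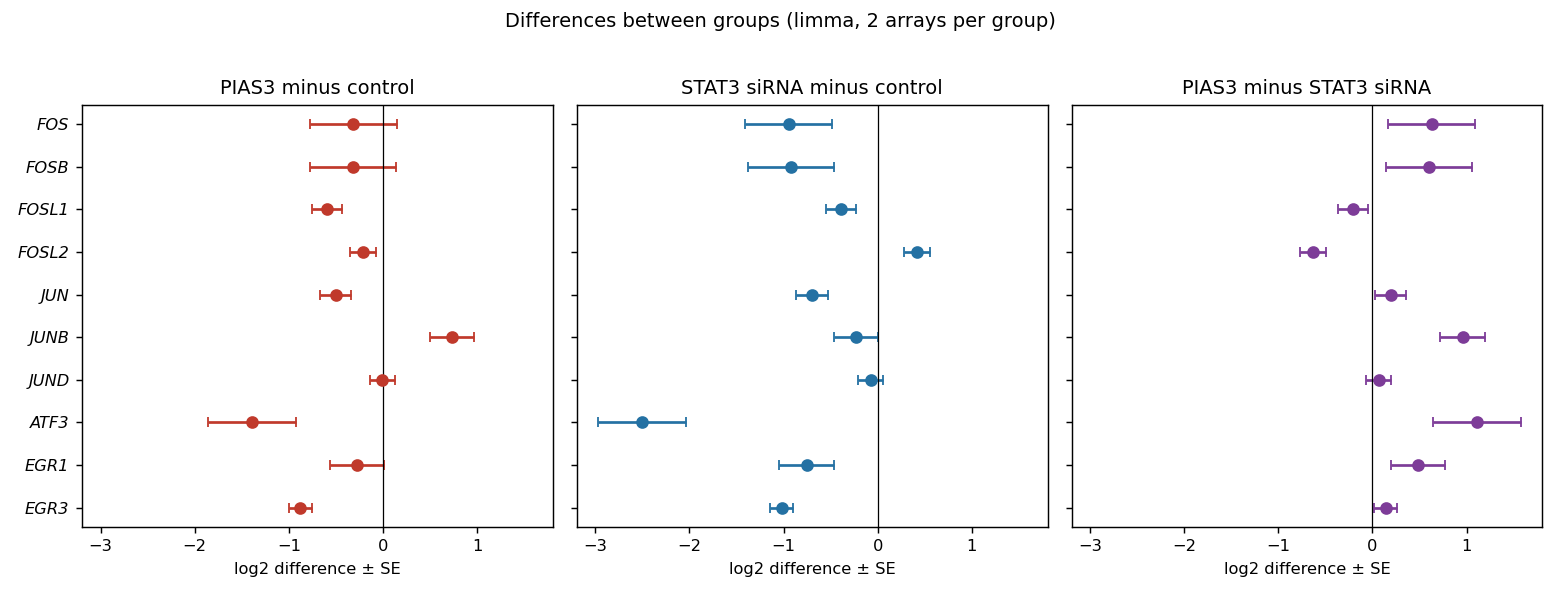
Log2 difference of each gene between groups, with the standard error of the limma fit (2 arrays per group). ATF3 has the most negative difference in both comparisons with control (-1.39 and -2.50), JUNB is positive with PIAS3 (0.73) and FOSL2 is positive with the siRNA (0.42).

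The comparison of PIAS3 with the STAT3 siRNA asks where the plasmid and the siRNA differed, with both groups transfected. The genes with the smallest p were FOSL2 and JUNB. FOSL2 was lower with PIAS3 by 0.63 ± 0.14, both PIAS3 arrays lying below both siRNA arrays (limma adjusted p = 0.607), and its other probe sets gave -0.17 ± 0.11 and -0.24 ± 0.12. JUNB stood 0.96 ± 0.24 higher with PIAS3, again without overlap (adjusted p = 0.607). ATF3 stood 1.11 ± 0.47 higher (adjusted p = 0.611) without overlap, PIAS3 replicate 2 lying just above siRNA replicate 1. This ATF3 difference was 0.25 without PIAS3 replicate 1 and 1.97 without PIAS3 replicate 2, each fit resting on 1 PIAS3 array. Both PIAS3 arrays lay above both siRNA arrays for 2 members, where 17.0% of all genes did, and below for 1, where 17.5% did. FOS (0.63 ± 0.46), FOSB (0.60 ± 0.46) and EGR1 (0.48 ± 0.29) had overlapping arrays. Without PIAS3 replicate 1, FOS, FOSB, JUN and JUND turned to -0.15, -0.24, -0.01 and -0.09. For JUND the difference of 0.07 had a 95% interval of -0.25 to 0.38, and for EGR3 that of 0.14 had an interval of -0.14 to 0.43.

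The PIAS3 arrays disagreed with each other on these genes. PIAS3 replicate 1 exceeded replicate 2 for 9 of the 10 genes, FOSL2 being the exception, by 1.72 for ATF3, 1.69 for FOSB, 1.56 for FOS and 0.80 for EGR1 on the log2 scale. The median absolute difference between the arrays of a group was 0.48 for PIAS3, 0.27 for the siRNA and 0.06 for the controls over the 10 genes, against 0.17, 0.14 and 0.09 over all genes. Counted array by array, 9 of the 10 genes were below both controls in PIAS3 replicate 2, where 37.8% of all genes were. In siRNA replicate 1 the count was also 9 (32.1% of all genes), JUND being lower than control replicate 1 by less than the printed precision. It was 8 in siRNA replicate 2 (44.0% of all genes) and 5 in PIAS3 replicate 1 (43.8%). The 5 genes above both controls in PIAS3 replicate 1 were FOS, FOSB, JUNB, JUND and EGR1, where 39.5% of all genes were above. JUND and EGR1 were above both controls there by their brightest probe sets only. In PIAS3 replicate 2 and siRNA replicates 1 and 2 1 member each was above both controls, where 39.4%, 41.8% and 33.7% of all genes were.

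Other immediate early genes showed a like arrangement. Of 20 measured, 0 passed in any comparison in limma. At an unadjusted p under 0.05, 10 were lower and 0 higher with the siRNA, where 3.06% and 2.32% of all genes were. With PIAS3 3 were lower and 2 higher, where 7.44% and 7.13% of all genes were, and these shares are the background for the lists that follow. Their median difference was -0.49 with the siRNA and -0.12 with PIAS3, beside -0.00 over all genes in each. Of the 20, 18 lay below both controls in siRNA replicate 1 (32.1% of all genes) and 15 in siRNA replicate 2 (44.0%). PIAS3 replicate 2 had 15 below both (37.8% of all genes). PIAS3 replicate 1 had 7 below both (43.8% of all genes) and 11 above both (39.5%). KLF4, a zinc finger factor of epithelial cells, read 8.40 and 8.27 in the PIAS3 arrays, 7.997 and 8.39 in the siRNA arrays, and 9.18 and 9.19 in the controls. CCN1, a matricellular protein, read 10.41 and 10.87, 11.15 and 10.71, and 11.87 and 12.00 in the same groups. Both read lower in all 4 transfected arrays than in either control, without passing (KLF4 by -0.85 ± 0.15 and -0.99 ± 0.15, CCN1 by -1.29 ± 0.20 and -1.01 ± 0.20, with PIAS3 and with the siRNA). KLF6 (-0.86 ± 0.27) and the kinase SGK1 (-0.81 ± 0.19) completed the 4 smallest p-values with the siRNA, SGK1 reading 8.65 and 9.22 in the siRNA arrays against 9.67 and 9.82 in the controls. The orphan nuclear receptor NR4A2 stood apart, at 7.95 and 6.004 in the PIAS3 arrays, 5.48 and 5.67 in the siRNA arrays, and 5.39 and 5.46 in the controls (1.55 ± 0.52 with PIAS3, adjusted p = 0.254). GADD45B, a stress-response gene, read 9.74 and 9.35 with PIAS3 and 9.15 and 8.89 in the control arrays (0.53 ± 0.18, adjusted p = 0.260).

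**Figure D4:**
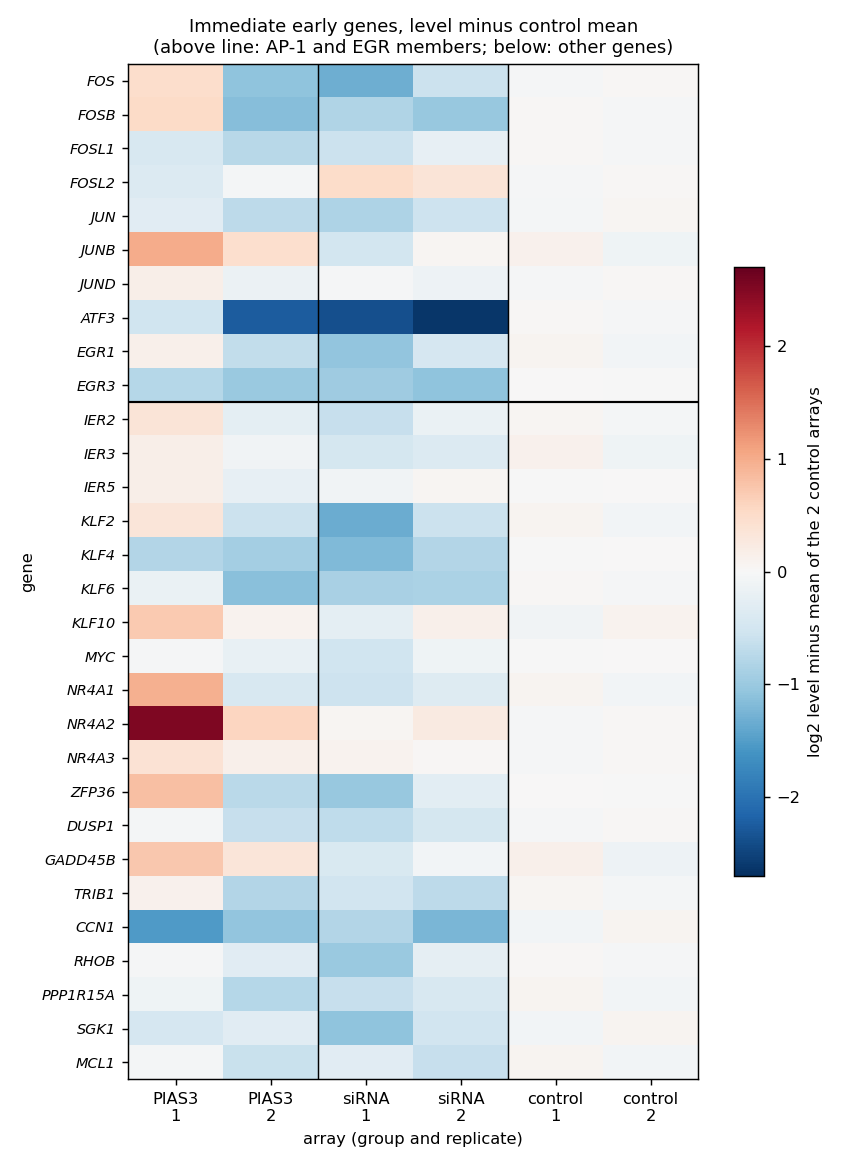
Level of each immediate early gene minus the mean of the 2 control arrays (colour, log2 units), by array. The 10 AP-1 and EGR genes are above the line and 20 other immediate early genes below it. Of these 20, 11 lay above both controls in PIAS3 replicate 1 (39.5% of all genes) and 18 below both in siRNA replicate 1 (32.1%).

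The genes whose levels followed FOS and ATF3 most closely were found by root mean square distance between levels centred on each gene's own mean over the 6 arrays. FOS lay nearest to ZFP36 (0.16 log2 units), an mRNA decay factor, then KLF2 (0.22), a zinc finger factor, and CXCL8 (0.24), a neutrophil chemokine. ZFP36 read 11.09 and 9.56 in the PIAS3 arrays, 9.27 and 10.00 in the siRNA arrays, and 10.31 and 10.27 in the controls, the order of the FOS arrays except that the close controls change places. ATF3 had no neighbour as close: CEACAM6, an adhesion molecule, lay at 0.56, FOSB at 0.66 and MMP7, a matrix protease, at 0.70. The distances were not scaled to a gene's range over the arrays, which was wider for ATF3 (2.65) than for FOS (1.78). They rest on 6 arrays and are a description.

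Of 11 other leucine zipper and EGR-related genes measured, 0 passed in limma in any comparison, and at an unadjusted p under 0.05 2 were higher with PIAS3 and 0 lower, with 0 in either direction with the siRNA. ATF2, which pairs with JUN, read 8.29 and 8.26 in the PIAS3 arrays, 8.07 and 7.92 in the siRNA arrays, and 7.81 and 7.74 in the controls (0.50 ± 0.11 with PIAS3, adjusted p = 0.121). NAB1, a corepressor of EGR proteins, differed by 0.59 ± 0.23 with PIAS3. MAF, a leucine zipper factor, read 5.21 and 6.21 with PIAS3 and 5.13 and 5.03 in the control arrays, and its difference of 0.63 ± 0.30 lay mostly in PIAS3 replicate 2. Of 14 kinases and SRF cofactors measured, 0 passed in any comparison, and 3 were lower with PIAS3 and 1 with the siRNA at an unadjusted p under 0.05. SRF itself read 7.26 and 7.54 in the PIAS3 arrays, 7.52 and 7.42 in the siRNA arrays, and 7.995 and 7.83 in the controls. Its difference was -0.51 ± 0.13 with PIAS3 (adjusted p = 0.164) and -0.44 ± 0.13 with the siRNA (adjusted p = 0.878), with no overlap in either. The ERK kinase MAP2K1 read 10.18 and 10.55 with PIAS3 and 10.74 and 10.89 in the control arrays (-0.45 ± 0.15), and the SRF coactivator MRTFB differed by -0.35 ± 0.13 with PIAS3. Of 9 ERK output genes, 0 passed, and SPRY2, a feedback inhibitor of the pathway, was the only gene with an unadjusted p under 0.05 in both comparisons with control (-0.74 ± 0.13 with PIAS3, adjusted p = 0.0873, and -0.63 ± 0.13 with the siRNA, adjusted p = 0.495).

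Of 24 AP-1 targets measured, 0 passed in any comparison, and at an unadjusted p under 0.05 3 were higher and 4 lower with PIAS3 (7.13% and 7.44% of all genes) and 1 higher and 3 lower with the siRNA (2.32% and 3.06% of all genes). HBEGF, an EGF receptor ligand, read 6.68 and 6.42 in the PIAS3 arrays, 6.54 and 6.25 in the siRNA arrays, and 7.52 and 7.41 in the controls, all 4 transfected arrays being lower (-0.92 ± 0.14, adjusted p = 0.0792, and -1.07 ± 0.14, adjusted p = 0.238). HMOX1, a heme oxygenase, read 10.98 and 11.07 in the PIAS3 arrays, 9.87 and 10.99 in the siRNA arrays, and 9.60 and 9.62 in the controls. All 4 transfected arrays were above both controls, by 1.42 ± 0.31 with PIAS3 and 0.82 ± 0.31 with the siRNA in mean, and siRNA replicate 2 read close to the PIAS3 arrays. SPP1, a secreted matrix protein, stood at 1.97 ± 0.46 with PIAS3. SPP1 read 11.34 and 11.01 in the PIAS3 arrays, 9.21 and 10.86 in the siRNA arrays, and 9.13 and 9.28 in the controls, so siRNA replicate 2 also read high. The protease PLAU (-0.57 ± 0.11) and CXCL8 (-0.90 ± 0.28) lay below both controls in both siRNA arrays, with neither passing. Of 11 EGR1 targets, 0 passed. At an unadjusted p under 0.05, 2 were lower in each comparison with control, and 1 was higher with PIAS3 and 0 with the siRNA. F3, the tissue factor of coagulation, read 6.41 and 6.73 in the PIAS3 arrays, 7.23 and 6.82 in the siRNA arrays, and 7.91 and 8.10 in the controls (-1.43 ± 0.18, adjusted p = 0.0554, and -0.98 ± 0.18, adjusted p = 0.411). THBS1, a matrix glycoprotein, read 7.06 and 7.45 in the PIAS3 arrays, 8.68 and 7.36 in the siRNA arrays, and 8.77 and 9.07 in the controls (-1.66 ± 0.38 and -0.90 ± 0.38), with siRNA replicate 1 close to the controls. GDF15, a stress-induced cytokine, read 10.77 and 9.23 in the PIAS3 arrays, 8.59 and 9.04 in the siRNA arrays, and 8.89 and 8.72 in the controls. Its difference of 1.19 ± 0.43 with PIAS3 lay mostly in PIAS3 replicate 1. The medians were -0.11 and -0.14 for AP-1 targets and 0.03 and -0.15 for EGR1 targets, with PIAS3 and with the siRNA.

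Of 9 genes of the ATF4 and stress list, in which ATF3 acts as a partner or target, 0 passed in any comparison. At an unadjusted p under 0.05, 2 were higher and 1 lower with PIAS3 (7.13% and 7.44% of all genes), with a list median of 0.14. With the siRNA 0 were higher and 3 lower (2.32% and 3.06% of all genes), with a list median of 0.0062. GADD45A, a growth arrest gene, read 9.18 and 8.84 in the PIAS3 arrays, 8.87 and 8.68 in the siRNA arrays, and 9.82 and 9.74 in the controls (-0.77 ± 0.14, adjusted p = 0.0973, and -1.0004 ± 0.14, adjusted p = 0.263). ATF4, an upstream activator of ATF3, read 11.42 and 11.51 in the PIAS3 arrays, 11.03 and 11.60 in the siRNA arrays, and 11.48 and 11.30 in the controls, and its groups overlapped. DDIT4, an inhibitor of mTOR signalling, and CEBPB, a leucine zipper factor, stood at 0.53 ± 0.10 and 0.88 ± 0.17 with PIAS3 (adjusted p of 0.0973 and 0.104).

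**Figure D5:**
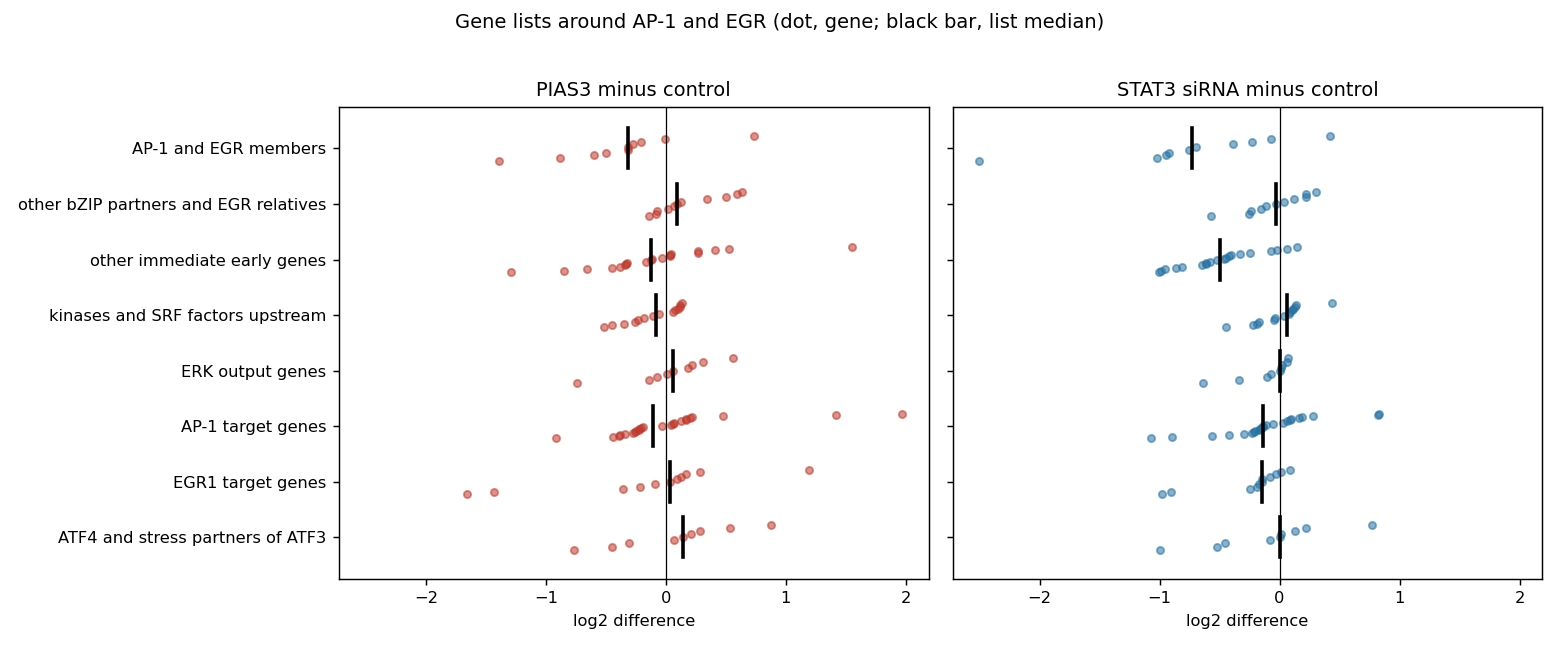
Log2 difference from control of every measured gene in 8 lists (dots), with the list median (black bar), for PIAS3 (left) and the STAT3 siRNA (right). Medians are -0.32 and -0.73 for the AP-1 and EGR genes, -0.12 and -0.49 for the other immediate early genes, and -0.08 and 0.06 for the upstream kinases and SRF factors, and differences between lists were not tested.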

How the data were processed

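The values are the authors' deposited log2 signals of 6 arrays. RMA, which corrects background, normalizes between arrays and summarises probes, is named in the submitters' processing notes, with a version not given in the sources used here. Groups and replicate numbers came from the sample titles. The 62 array control probe sets of 22277 were left out of the tests. Of 22215 probe sets, 19064 had 1 symbol, 1043 several and 2108 none, 19052 matched RefSeq by gene identifier, and probe sets with several symbols stayed unnamed.

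All 6 arrays entered 1 two-sided fit with lmFit and eBayes (limma 3.58.1, R 4.3.3, 3 residual and 4.27 prior degrees of freedom), with Benjamini-Hochberg adjustment over 22215 probe sets and a threshold of 0.05. It was tested on simulated data. The array number limits precision. Alternatives were a replicate block, repeated quantile normalization, centring on array medians, a mean-level filter set at percentile 40, a trend in eBayes, a fit of the 2 groups alone, averaging all probe sets per gene, and omitting single arrays. Genes named beside the 10 were up to 4 per list and comparison with the smallest p, and the 3 nearest genes to the 2 members of widest range. ATF4 and the interferon genes were chosen after values were seen. Members and lists were chosen with earlier results of these data known. Some listed genes are not reported here. Promoter sequences came from RefSeq (GRCh38.p14), and were used for 8 of the 10 genes. Figures used Python 3.11.15 and matplotlib 3.10.9.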

Additional observations from a re-analysis of the deposited data

How the results depend on the processing

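Of the 10 genes, ATF3 and EGR3 crossed the threshold against control under some settings. For PIAS3 the count of members called was 0 in the reported fit. It was 1 (EGR3) with a trend, with the 2 groups alone or without either siRNA array. Over all probe sets the trend called 26 and those other fits 262. Without PIAS3 replicate 1 the ATF3 difference was -2.25, and without PIAS3 replicate 2 the EGR3 difference was -0.76. For the siRNA the count of members called was 1 (ATF3) with the 2 groups alone or without either PIAS3 array. For PIAS3 against the siRNA it was 0 in every fit with 2 arrays in each group compared. Without PIAS3 replicate 2 that comparison gave 1.45 for FOSB, -0.79 for FOSL2 and 1.97 for ATF3. Without PIAS3 replicate 1 it gave -0.24, -0.46 and 0.25. A fit without 1 PIAS3 array rests on the other, and replicate 1 had raised interferon genes and spike-ins. Over all probe sets, the count for PIAS3 against control was 22 in the reported fit. It was 2 with the replicate block, 2 after repeated quantile normalization, 2 with the filter, 262 with the 2 groups alone, 12 with probe sets averaged per gene, and 0 to 1232 with arrays left out. For the siRNA it was 1 in the reported fit, 0 after repeated quantile normalization, 3 with the 2 groups alone and 0 to 5 with arrays left out, and for PIAS3 against the siRNA it was 0 and then 0 to 544. Differences between replicates 1 and 2 over all probe sets correlated little from group to group (-0.05, 0.09 and -0.06). These correlations cannot decide whether arrays of the same replicate number were paired. With the replicate block 0 members were called in each comparison. Repeated quantile normalization turned JUND to 0.052 for PIAS3 against control, and averaging probe sets turned SPRED2 to -0.014 for the siRNA. With arrays left out, differences changed sign for these genes. For PIAS3 against control FOS ranged over -1.09 to 0.47, FOSB -1.16 to 0.53, JUND -0.17 to 0.15, EGR1 -0.67 to 0.13 and DUSP5 -0.10 to 1.23. For the siRNA against control JUNB ranged over -0.50 to 0.044, SPRED2 -0.086 to 0.23 and DUSP5 -0.83 to 0.15. For PIAS3 against the siRNA FOS ranged over -0.15 to 1.41, FOSB -0.24 to 1.45, JUN -0.010 to 0.40, JUND -0.092 to 0.23, MAFF -0.014 to 1.35, DUSP4 -0.056 to 0.63, ASNS -1.34 to 0.080, NAB1 -0.012 to 0.75, RPS6KA5 -0.69 to 0.047 and SPRED2 -0.040 to 0.27. Beyond these array omissions, the cause was not tested. Of the alternatives for the 10 genes, 364 kept direction and side of the threshold, 12 passed it and 11 turned direction. The filter removed EGR3, so it has no value there. Omitting an array of the group outside a comparison repeated the fit of the 2 groups alone. The tally of alternatives therefore counts that fit more than once.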
